A study of Mus musculus with 6 samples.

Results

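The genes described here are 33 markers of the cells that line the brain's ventricles: 14 genes of the choroid plexus and 19 genes of ependymal cilia. They were chosen by symbol and matched through the GENCODE M21 annotation of the mouse genome build GRCm38, and all 33 were found in the deposited tables. All 33 were also among the 20315 genes that passed edgeR's filter on low counts. RNA-seq of hippocampus had been performed on 3 WT mice (WT1, WT2 and WT3) and 3 Prmt9 KO mice (KO1, KO2 and KO3). All 6 were females of the B6J strain, 2 weeks old, and the controls were littermates. The Prmt9 KO is a whole-body deletion, made in the germline with CMV-Cre, of a floxed exon of Prmt9, the gene of an arginine methyltransferase. The labelled tissue is hippocampus, so the ventricular cells were measured as part of it and were not sorted.

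The choroid plexus is a sheet of epithelial cells that secretes cerebrospinal fluid into the ventricles, and it attaches to the edge of the hippocampus. Its cells carry water, ions and nutrients from blood to fluid and release carrier proteins such as transthyretin. Ependymal cells form the ventricle wall itself and move the fluid with bundles of motile cilia, whose beating needs dynein arms, radial spokes and a central pair of microtubules. Their ciliary genes are switched on by FOXJ1 and by RFX factors, which bind a DNA element called the X-box, whereas OTX2 is a transcription factor of choroid plexus epithelium.

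The promoters of the members were searched for the X-box and for sequences bound by forkhead and OTX factors. RefSeq promoter sequences (GRCm38.p6, 250 bases before to 50 after a gene's start) were found for 24 of the 33 members, 9 choroid and 15 ependymal. The members without an entry were Clic6, Enpp2, Folr1, Foxj1, Rarres2, Rsph1, Rsph4a, Sostdc1 and Ttr. An X-box was searched as the half-sites GTTGCC and GGNAAC with 2 letters between them, on both strands, with up to 2 mismatches over its 11 fixed letters. Such a match stood in 9.57% of the 27025 genes of the promoter table, in 8 of the 15 ependymal members and in 2 of the 9 choroid members. The 5 ependymal members with 1 mismatch are shown first, 5′ to 3′ on the strand of the gene. Capitals mark the letters that match the element.
Ccdc153 (chr9:44240517-44240546, forward strand): gttttccaGTTGCCtgGacAACgtgcagta
Hydin (chr8:110266948-110266977, forward strand): actctgcgGTTGCtgtGGcAACagatggta
Cfap44 (chr16:44394764-44394793, forward strand): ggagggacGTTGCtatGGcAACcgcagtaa
Drc1 (chr5:30281366-30281395, forward strand): gtgactgctTTcCCttGGCAACggcttgtt
Spag6l (chr16:16829314-16829337, reverse strand): tgctgtcgGTTGCCctGGagACgc
The matches of Hydin, Cfap44 and Drc1 began 21, 27 and 19 bases before the annotated start, and that of Ccdc153 began 152 bases before it. Spag6l had its match within the last bases of the window, after the start. The match of Drc1 lies on the strand opposite to the gene. Tekt1, Mlf1 and Spef2 matched with 2 mismatches. For comparison, the 2 choroid members with a match had 2 mismatches each.
Kcne2 (chr16:92292264-92292293, forward strand): agcccgacGTcaCacaGGCAACtccgtgcc
Calml4 (chr9:62858035-62858064, forward strand): agagcccgGTctCCgtGGCAgCggaggatt
The first half-site alone, GTTGCC, stood in 9 of 15 ependymal members, in 3 of 9 choroid members and in 14.1% of all genes, and it overlaps the X-box. The forkhead sequence TGTTTAC stood in 3 of 15 ependymal members (Cfap43, Ak7 and Mlf1), in 1 of 9 choroid members (Prlr) and in 4.05% of all genes. The OTX2 sequence TAATCC stood in 2 of 15 ependymal members, in 1 of 9 choroid members (Otx2 itself) and in 8.14% of all genes. These are matches of letters, and binding was not measured here.

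The deposited values are TPM, relative transcript abundances that the authors obtained with kallisto, and they are scaled for transcript length, so levels can be compared between genes. The estimated counts summed to between 194098391 and 286771677 per mouse. In the Prmt9 KO mice, Prmt9 itself had 3.93, 4.61 and 4.67 TPM, against 11.8, 15.2 and 14.96 TPM in WT mice, and the groups did not overlap (log2 fold change −1.71, SE 0.10, Benjamini-Hochberg adjusted p = 0.0327 from edgeR's quasi-likelihood fit). WT1 and KO1 stood apart from the other 4 mice, on a first principal component that held 67.4% of the variance of the gene counts. In WT1, 37.4% of the transcripts had no counts, against 22.8% to 24.8% in the other mice. The length of a gene is given here and below as the mean length of its transcripts, weighted by their TPM. Genes under 1000 bases had a median log2 ratio of 0.20 in WT1 and 0.11 in KO1 against the other mice of their genotype. Genes over 8000 bases had −0.54 and −0.34. The main comparisons are therefore also given without these mice.

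The choroid plexus members differed between single mice far more than between genotypes. Ttr, which codes for the thyroxine carrier transthyretin, had 7157 TPM in WT1, 589 in WT2 and 1950 in WT3, and 844, 2274 and 3261 TPM in KO1, KO2 and KO3. The highest and the lowest level were both WT, 12.2-fold apart, and the Prmt9 KO mice lay between them. In bulk tissue, fewer cells of a type and less RNA per cell cannot be told apart. Ttr made up between 70.8% and 92.1% of the summed TPM of the 14 members.

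Folr1, Calml4 and Sostdc1 had the same order of mice as Ttr. Folr1, a folate receptor of this epithelium, had 74.5, 8.17 and 24.6 TPM in WT mice and 12.2, 25.5 and 38.7 TPM in Prmt9 KO mice. Calml4, a calmodulin-like gene, had 29.9, 5.53 and 10.2 TPM in WT and 8.03, 12.4 and 14.3 TPM in KO. Sostdc1, a secreted antagonist of BMP and WNT signals, had 17.3, 4.59 and 8.68 TPM in WT and 6.63, 11.04 and 12.1 TPM in KO. In these 3 genes, as in Ttr, WT1 was highest, WT2 was lowest, and the genotypes overlapped.

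Otx2, the transcription factor, had 8.70, 2.19 and 5.43 TPM in WT and 2.30, 7.98 and 9.92 TPM in KO. Here KO3, not WT1, was highest, and WT2 was again lowest. Its log2 fold change was 0.17 with an SE of 0.68.

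Among the transporters and channels, the level ranged from 2.29 TPM in WT2 to 15.5 in WT1 for the water channel Aqp1, and from 3.22 in WT2 to 12.97 in WT1 for the potassium channel Kcnj13. The channel subunit Kcne2 ranged from 1.51 TPM in WT2 to 8.55 in WT1. For the bicarbonate transporter Slc4a5 the range was 1.01 in KO1 to 9.17 in WT1. Of the exon bases of Kcnj13, 49.1% overlap Gigyf2 on the opposite strand, and the sources used here do not say whether kallisto was run with strand, so Kcnj13 is uncertain. The chloride channel protein Clic6 had its lowest level of 2.75 TPM in WT2 and its highest of 11.7 in KO3. Cldn2, a claudin of tight junctions, went from 1.53 in WT2 to 7.04 in KO3.

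In Kl and Prlr, both longer than 4000 bases, KO1 was lowest and WT1 was not among the 3 highest mice. Kl, the gene of the hormone co-receptor klotho, had its lowest level of 3.46 TPM in KO1 and its highest of 15.5 TPM in KO3, and WT1 had 7.44 TPM. Prlr, the prolactin receptor, ranged from 1.45 TPM in KO1 to 5.59 TPM in KO3, with 3.23 TPM in WT1.

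Enpp2, the gene of autotaxin, which makes the signalling lipid lysophosphatidic acid, had 413, 201 and 347 TPM in WT and 77.6, 337 and 448 TPM in KO. It was lowest in KO1 and highest in KO3. Enpp2 is also a gene of myelinating oligodendrocytes. The summed TPM of 4 oligodendrocyte genes (Mbp, Mog, Mag and Mobp, chosen after their values were seen) was 1697 in WT1 and 829 in KO1, and between 6035 and 8659 in the other mice. The part of these cells in the Enpp2 values was not tested.

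Over the 14 choroid members, the highest mouse was between 3.78 and 12.2 times the lowest, with a median of 5.01. In 12 of the 14 members the highest mouse reached at least 4 times the lowest, against 4.2% of the 15200 genes with a mean of at least 1 TPM. Without WT1, a range added after seeing the data, as is the next, it was so in 10 of 14, against 2.08% of these genes. Without both mice numbered 1 it was so in 8 of 14, against 0.539%. WT1 was highest in 8 members and KO3 in 6, and WT2 was lowest in 10 members and KO1 in 4. No other mouse was highest or lowest in any of them.

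**Figure D1:**
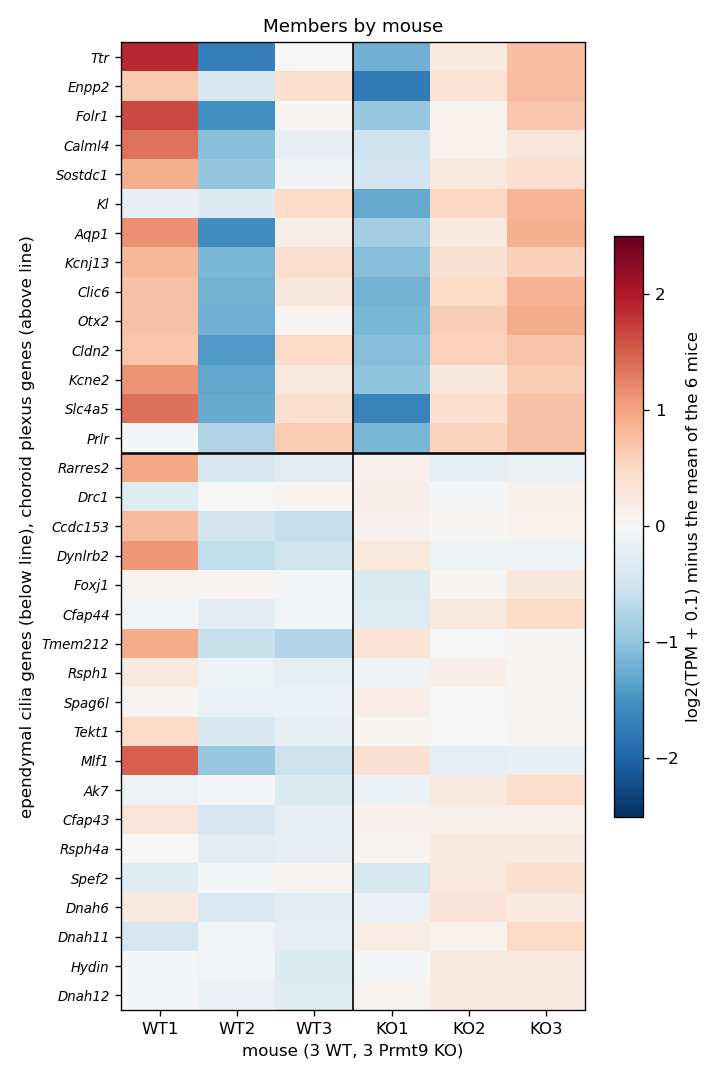
The level of each of the 33 members in each mouse, as log2(TPM + 0.1) minus the mean of the 6 mice, red above and blue below that mean. The 14 choroid plexus genes stand above the horizontal line and the 19 ependymal cilia genes below it, each set in order of mean TPM. The choroid genes are pale to blue in WT2 and KO1 and red in KO3, and most are red in WT1, the highest mouse in 8 of the 14. Most ependymal genes stay pale.

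The ependymal cilia members were much steadier. Foxj1, the transcription factor of motile cilia, had 8.90, 8.73 and 8.15 TPM in WT and 6.55, 8.65 and 10.4 TPM in KO, a 1.58-fold range. Drc1, of the nexin-dynein regulatory complex, had 15.7, 19.5 and 20.0 TPM in WT and 21.6, 19.04 and 20.9 TPM in KO. In both genes the genotypes overlapped.

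The short members of this set were highest in WT1. Rarres2, which codes for the secreted protein chemerin, had 44.7, 17.3 and 18.6 TPM in WT and 24.5, 19.3 and 20.2 TPM in KO. Ccdc153, a coiled-coil protein, had 26.9, 11.4 and 10.5 TPM in WT and 16.8, 15.9 and 16.6 TPM in KO. Dynlrb2, a dynein light chain, had 19.2, 5.80 and 6.34 TPM in WT and 10.8, 8.20 and 8.20 TPM in KO. In all 3 genes KO1 was the second highest mouse after WT1. Their mean transcript lengths, weighted by TPM, are 792, 751 and 518 bases. Tmem212 (716 bases) and Mlf1 (1110 bases) followed the same order, from 4.01 to 13.02 TPM and from 1.97 to 11.1 TPM. Of the exon bases of Rarres2, 33.6% overlap Lrrc61 on the opposite strand.

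The genes of the ciliary axoneme stayed within narrow ranges. Spag6l and Hydin, of the central pair, lay between 6.16 and 7.92 TPM and between 0.553 and 0.887 TPM. Spef2, also of the central pair, lay between 1.07 and 1.94 TPM. The radial spoke genes Rsph1 and Rsph4a lay between 6.05 and 8.33 TPM and between 2.00 and 2.89 TPM.

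The dynein heavy chains were low throughout. Dnah6 had 1.10, 0.684 and 0.735 TPM in WT and 0.820, 1.17 and 1.10 TPM in KO. Dnah11 ranged from 0.565 in WT1 to 1.18 in KO3, and Dnah12 from 0.125 in WT3 to 0.230 in KO3. The tektin gene Tekt1 ranged from 3.54 in WT2 to 6.64 in WT1, and the adenylate kinase gene Ak7 from 2.47 in WT3 to 4.29 in KO3. Cfap43 and Cfap44, which code for cilia and flagella associated proteins, ranged from 1.81 to 3.07 TPM and from 6.20 to 10.99 TPM.

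Over the 19 ependymal members, the highest mouse was between 1.29 and 5.64 times the lowest, with a median of 1.77. The highest mouse reached 4 times the lowest in 1 of the 19, Mlf1. KO2 and KO3 were the lowest mouse in none of them. Groups of 3 and 3 did not overlap in TPM in 4 members, Hydin, Dnah11, Dnah12 and Rsph4a, all with the Prmt9 KO mice above. In TPM, Prmt9 KO mice lay above WT without overlap in 5.28% of the 20315 genes, and below in 1.38%. In normalized counts (CPM) the groups overlapped in all 4 members, with WT1 above KO1. For Hydin, WT1 had a CPM of 7.02, against 5.22 to 6.16 in KO, and for Rsph4a 5.99, against 5.34 to 5.46. The unadjusted p of these 4 genes in edgeR's quasi-likelihood test lay between 0.159 (Dnah12) and 0.491 (Hydin), and their adjusted p was 1.

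The summed levels of the 2 sets spread very differently over the mice. The 14 choroid members summed to 7775, 832 and 2404 TPM in WT mice and to 970, 2728 and 3860 TPM in Prmt9 KO mice, a 9.34-fold range. Without WT1 the range was 4.64-fold, from WT2 to KO3, and it was the same without both mice numbered 1. The 19 ependymal members summed to 181, 102 and 104 TPM in WT and to 131, 124 and 132 TPM in KO, a 1.77-fold range that was 1.29-fold without WT1. WT2 and KO1 had the lowest choroid sums, but KO1 was not low in the ependymal sum.

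The ratio of the choroid sum to the ependymal sum was 42.9, 8.12 and 23.04 in WT and 7.38, 21.9 and 29.2 in KO. The genotypes overlapped, and the mean log2 ratio was 0.25 lower in Prmt9 KO, against a pooled SD of 1.13 within genotypes. Without Ttr the ratio was 3.41, 2.37 and 4.35 in WT and 0.962, 3.65 and 4.53 in KO. KO1 was the lowest mouse with and without Ttr, and Enpp2, the second most abundant member, was lowest there too. Enpp2 held most of the choroid sum without Ttr: 77.6 of 126 TPM in KO1, 201 of 243 in WT2 and 448 of 599 in KO3. The ratio without Ttr therefore follows mainly this gene. A ratio of geometric means, in which the members weigh alike, was 1.52 in KO1 and 1.85 in WT2. The mean difference changed sign without WT1, to 0.30, and without KO1, to 0.34.

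**Figure D2:**
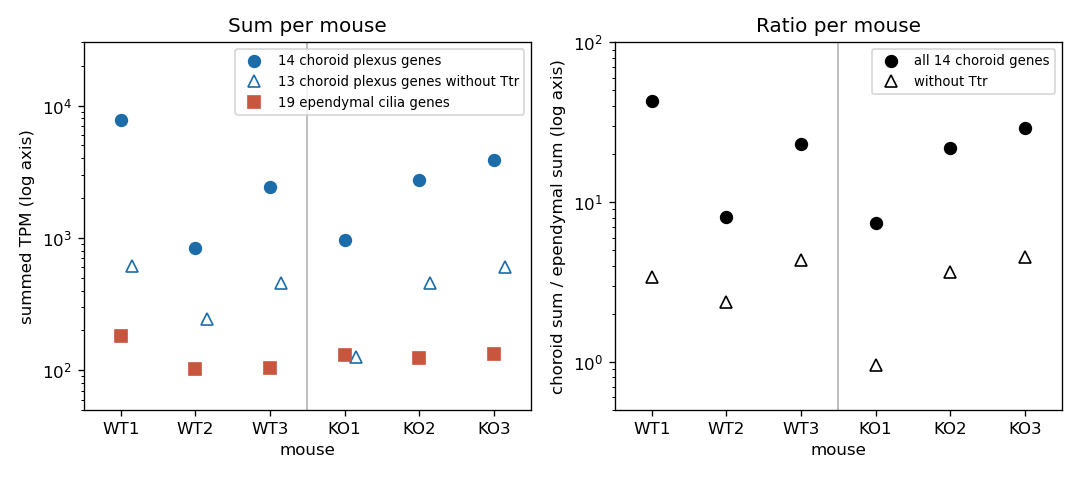
Left, the summed TPM per mouse of the 14 choroid plexus genes, of 13 of them without Ttr, and of the 19 ependymal cilia genes, on a log axis. Right, the ratio of the choroid to the ependymal sum, on a log axis, with and without Ttr. The choroid sum runs from 832 in WT2 to 7775 in WT1, and the ependymal sum from 102 in WT2 to 181 in WT1.

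To ask whether other tissue moved with the choroid genes, markers of neighbouring cells and regions were followed in the same mice. The 16 further choroid plexus genes summed to 382, 161 and 233 TPM in WT and to 199, 253 and 282 TPM in KO. Igf2 and 1500015O10Rik were the most abundant of them, and without these genes, left out after their values were seen, the sum was 114, 79.9 and 108 TPM in WT and 60.8, 119 and 133 TPM in KO. KO1 was then lowest and KO3 highest. Gene by gene, KO1 was lowest in 8 of the 16, WT2 in 7 and WT1 in 1, while WT1 was highest in 9 and KO3 in 5. The 43 further motile cilia genes summed to between 227 and 311 TPM, and 8 regulators of motile cilia, among them Rfx2, Rfx3, Gmnc and Mcidas, to between 25.7 and 43.4 TPM.

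Markers of tissues beside the hippocampus differed among themselves in their order of mice. The 9 genes of meninges and fibroblasts summed to 120, 82.0 and 91.8 TPM in WT and to 173, 97.2 and 78.3 TPM in KO, so KO1 was highest and KO3, high in choroid genes, was lowest. The 7 genes of vascular endothelium summed to between 94.5 TPM in KO2 and 162 TPM in WT1. The 7 genes of thalamus ranged from 55.6 TPM in WT1 to 82.6 TPM in KO3. The 7 genes of striatum and septum ranged from 56.8 TPM in KO1 to 93.6 TPM in KO3. These are the same lowest and highest mice as for the further choroid genes without Igf2 and 1500015O10Rik. Gene by gene, KO1 was lowest in 1 and KO3 highest in 2 of the 7 striatal and septal genes.

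The 8 genes of hippocampal subfields, which check the labelled tissue, were all present, with sums between 376 TPM in WT1 and 510 TPM in KO2. The 5 astrocyte genes ranged from 693 to 931 TPM and the 5 neuronal genes from 1749 to 3124 TPM, both lowest in WT1. The sum of none of these lists had a range above 2.37-fold, which was that of the further choroid genes. The choroid members had 9.34-fold, or 4.64-fold without WT1, and 4.89-fold when Ttr was left out of the sum. Gene by gene, the further choroid genes were nearer to the members. Their median range was 3.91-fold and their largest 11.9-fold, and 8 of the 16 reached at least 4-fold. The oligodendrocyte sum had a range of 10.4-fold, in another order of mice, and of 1.43-fold without both mice numbered 1.

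Expression of the members was then compared between genotypes. Of 20315 genes, 0 (0%) passed an adjusted p below 0.01 with a fold change above 1.5 in edgeR's quasi-likelihood test. An unadjusted p below 0.05 was found in 252 (1.24%). The knockout target Prmt9 was itself not called in the edgeR test, with an adjusted p of 0.0327. In the DESeq2 Wald test its adjusted p was 1.42e-60. Of the 33 members, 0 were called and 0 had an unadjusted p below 0.05, and the same counts came from the DESeq2 Wald test. The lowest unadjusted p was 0.414 among the choroid members, for Ttr, and 0.159 among the ependymal members, for Dnah12.

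The median log2 fold change was −0.24 over the 14 choroid members, 3 of them above 0, and 0.11 over the 19 ependymal members, 11 of them above 0. Of all genes tested, 46.9% were above 0. Ttr had a log2 fold change of −0.85 with an SE of 0.97, Folr1 of −0.72 with an SE of 0.83, Calml4 of −0.58 with an SE of 0.68, Enpp2 of −0.33 with an SE of 0.63 and Sostdc1 of −0.22 with an SE of 0.56. Foxj1 had −0.11 with an SE of 0.19, Rarres2 −0.43 with 0.47, Drc1 0.00 with 0.22, Ccdc153 −0.04 with 0.45, Dynlrb2 −0.33 with 0.57 and Dnah6 0.15 with 0.31. The SE of each of these is larger than the difference itself.

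The sign of the choroid median depended on single mice. Without WT1 it was 0.58, with 14 of 14 members above 0 against 53.9% of all genes, and without KO1 it was 0.10, while leaving out each other mouse gave values between −0.68 and −0.33. The ependymal median was 0.50 without WT1 and between −0.04 and 0.08 without each of the other mice.

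Mice of the same number were then set against each other. The numbers come from the sample titles, and the labels do not name pairs of mice. Between KO1 and WT1, all 14 choroid members were lower in KO1, with a median log2 ratio of −1.91 on the log2(TPM + 0.1) scale. Between KO2 and WT2 all 14 were higher in KO2, with a median of 1.61, and between KO3 and WT3 all 14 were higher in KO3, with a median of 0.43. The 3 comparisons by number thus did not share a direction. For the ependymal members the medians were −0.27, 0.39 and 0.38, with 6, 17 and 19 of 19 members higher in the Prmt9 KO mouse.

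**Figure D3:**
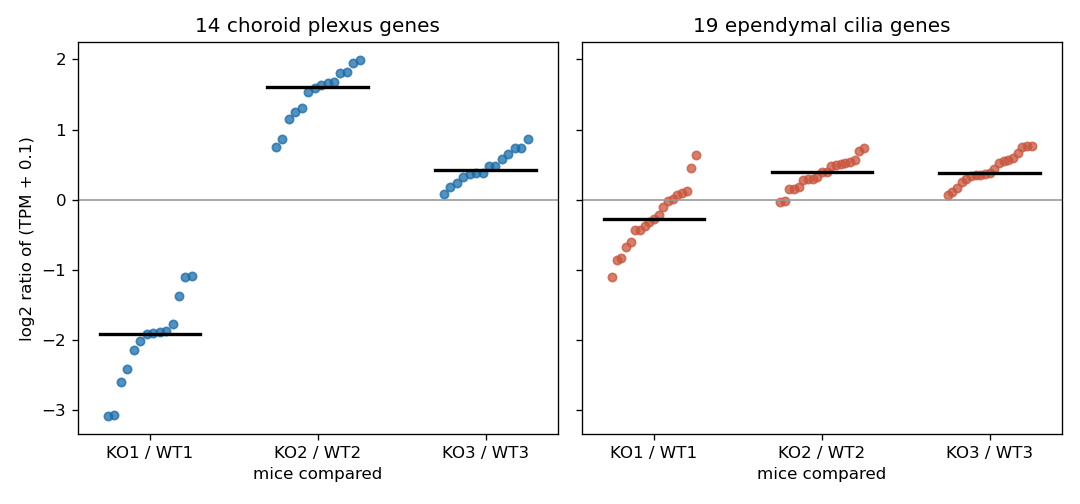
The log2 ratio of TPM + 0.1 of each Prmt9 KO mouse to the WT mouse of the same number, 1 point for each of the 14 choroid plexus genes (left) and 19 ependymal cilia genes (right), with the median as a bar. The mice are matched by the number in their titles only. The choroid genes lie below 0 in the first comparison and above 0 in the others.

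Among the 4 mice numbered 2 and 3, the choroid genes were ordered alike. WT2 was lowest and KO3 highest of these 4 in all 14 choroid members and in 14 of 16 further choroid genes, against 11.8% of the 15200 genes. It was so in 8 of 19 ependymal members, 17 of 43 further motile cilia genes, 2 of 8 cilia regulators, 4 of 9 meninges genes and 2 of 5 astrocyte genes. It was so in 1 of 7 endothelial, 1 of 7 thalamic, 1 of 7 striatal and septal, 0 of 5 neuronal and 0 of 8 subfield genes. This order and the next were added after seeing the data. Genes of 1 tissue are not independent, so these shares are descriptions and not tests. KO2 and KO3 both lay above WT2 and WT3 in 11 of 14 choroid members, in 17 of 19 ependymal members (all but Foxj1 and Drc1) and in 32 of 43 further motile cilia genes, against 23.3% of the 15200 genes. The same was true of 15 of 16 further choroid genes, 4 of 8 cilia regulators, 3 of 5 astrocyte genes, 3 of 9 meninges genes and 1 of 8 genes of hippocampal subfields. It was true of 0 of 7 endothelial, 0 of 5 neuronal, 0 of 7 thalamic and 0 of 7 striatal and septal genes.

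When edgeR was fitted to these 4 mice alone, a fit added after seeing the data, the median log2 fold change was 0.81 over the choroid members, between 0.53 (Enpp2) and 1.25 (Otx2), and 0.52 over the ependymal members. An unadjusted p below 0.05 with a higher level in Prmt9 KO was found in 3 of 14 choroid members, Sostdc1, Otx2 and Calml4, and in 16 of 19 ependymal members, against 7.82% of 20479 genes. Drc1 had an unadjusted p of 0.0384 with a log2 fold change of −0.15, and the share of all genes in that direction was 8.6%. The largest ependymal values were those of the dynein heavy chains, 0.73 for Dnah12, 0.69 for Dnah11 and 0.68 for Dnah6. Of the 33 members 0 were called, against 0.00488% of all genes, as the lowest adjusted p in edgeR was 0.0906, for Dnah6. Without WT1 alone, 13 of 19 ependymal members had an unadjusted p below 0.05, all higher in Prmt9 KO, against 2.28% of 20700 genes in that direction, and the lowest adjusted p was 0.797.

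With all 6 mice and a term for the mice numbered 1, 0 of the 33 members had an unadjusted p below 0.05, against 9.74% of all genes, and the lowest adjusted p of a member was 0.527. The choroid median was then −0.10 and the ependymal median 0.15. With the replicate number as a block, 0 of the 33 had an unadjusted p below 0.05, against 5.75% of all genes, and the medians were 0.02 and 0.15. All 14 choroid members were higher in KO2 than in WT2 and in KO3 than in WT3, and lower in KO1 than in WT1. Of the ependymal members, 6 of 19 were higher in KO1 than in WT1.

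Of the 43 further motile cilia genes, Spag17 had an unadjusted p below 0.05 with all mice. It is a central pair gene with 0.428, 0.248 and 0.287 TPM in WT and 0.431, 0.426 and 0.493 TPM in KO, a log2 fold change of 0.67 with an SE of 0.17. None of the 16 further choroid genes and none of the 8 cilia regulators had one. Among the 9 genes of meninges and fibroblasts it was found in Aldh1a2 alone, with a log2 fold change of 0.46 and an SE of 0.15. Neither passed the adjustment.

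Since mice 1 differed from the others by transcript length, the members were set beside genes of their own length. WT1 against the mean of WT2 and WT3 gave log2 ratios of normalized counts (CPM, with 0.1 added) of 3.09 for Ttr, 2.64 for Folr1 and 2.25 for Calml4, which are all under 2000 bases. It was 2.23 for Aqp1, of 2627 bases, and 1.93 for Slc4a5, of 3297 bases, above the 1.59 of the shorter Otx2 (1527 bases) and the 1.53 of Kcnj13 (1270 bases). For Kl, of 5154 bases, the ratio was 0.10, and for Prlr, of 4441 bases, −0.70. The median of all genes was 0.26 between 1000 and 2000 bases and −0.30 between 4000 and 8000 bases.

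In KO1 against KO2 and KO3 the 14 choroid members all lay below 0, from −0.55 for Calml4 to −2.15 for Enpp2. The 2 members over 4000 bases had a median of −1.96, and all genes of this length had −0.16. The 2 members under 1000 bases had −0.82, against 0.11 for all genes. Of the choroid members, those highest in WT1 had a median length of 1479 bases and those highest in KO3 of 3356 bases. The part of the length difference in the values of the single members was not tested.

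The ependymal members lay nearer to their length class in KO1 than in WT1. In WT1, the 4 members under 1000 bases had a median of 1.72, the 6 members of 2000 to 4000 bases 0.65 and the 3 members over 8000 bases 0.79, while all genes had 0.20, −0.06 and −0.54. The corresponding values in KO1 were 0.44, −0.25 and −0.19, against 0.11, −0.02 and −0.34.

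**Figure D4:**
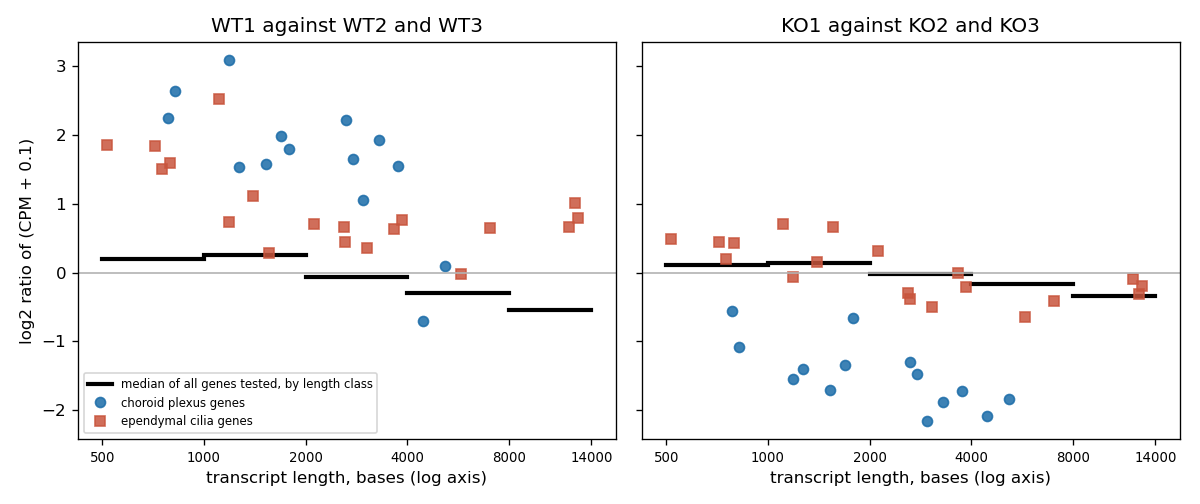
The log2 ratio of CPM + 0.1 of WT1 to the mean of WT2 and WT3 (left) and of KO1 to the mean of KO2 and KO3 (right). Points are the 14 choroid plexus and 19 ependymal cilia genes. The log axis gives transcript length, as the mean over a gene's transcripts weighted by TPM. Black bars give the median of all genes tested in 5 length classes. The choroid genes lie above these medians in WT1 for all but Prlr, and below them in KO1.

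Within Prlr, transcript shares in WT1 and KO1 differed from those in the other mice, without a single order by length. Prlr-202, the longest Prlr transcript at 9900 bases, made up 18.0% and 25.6% of the gene's TPM in WT1 and KO1 and between 37.8% and 44.4% in the other mice. Prlr-203, of 564 bases, made up 41.1% and 50.2% in WT1 and KO1 and between 11.7% and 19.9% in the others. Prlr-208, of 669 bases, went the other way, with 0% in WT1 and KO1 and between 17.3% and 28.03% in the other mice. WT1 and KO1 differed in Prlr-206, of 641 bases, which made up 35.5% in WT1 and 0% in KO1. The shares of the short transcripts rest on few reads. Prlr-203 had 64.8 and 37.6 estimated counts in WT1 and KO1, and Prlr-206 had 67.4 in WT1. Prlr-202 had 737 and 479 in WT1 and KO1.

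Transcript usage was tested in the 24 members that have 2 or more transcripts past the filter. Of 13560 genes, 23 (0.17%) were called by edgeR's diffSpliceDGE with a Simes test at an adjusted p below 0.01, and 0 of the 24 members were. An unadjusted p below 0.05 was found in 1.73% of all genes and in 2 members, Rarres2 and Dnah6. Of 70 member transcripts with a mean share between 5% and 95% in genes of at least 1 TPM in every mouse, 9 (12.9%) had shares that did not overlap between genotypes, near the 9.47% of all such transcripts.

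Rarres2 lies on chromosome 6, at 48569696 to 48572789 of the reverse strand. Its 4 protein-coding transcripts compared here combine 2 first exons with 2 acceptor sites of the fifth exon, which are 3 coding bases apart. The junction with the fourth exon is shown for both forms, 5′ to 3′ on the strand of the gene, with the 3 extra bases in capitals.
Rarres2-201: caagggcctcagCAGgatcctcaggag
Rarres2-204: caagggcctcaggatcctcaggag
The fifth exon starts at chr6:48570062 in Rarres2-201 and Rarres2-203 and at chr6:48570059 in Rarres2-204 and Rarres2-205.

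The form with the 3 bases made up 45.8%, 42.2% and 43.5% of the TPM of these transcripts in WT and 37.6%, 38.5% and 37.5% in KO. The means were 43.8% ± 1.8 and 37.9% ± 0.58 (SD, n = 3 each), and the groups did not overlap. An exact permutation test, two-sided, gave p = 0.1, the smallest that 3 against 3 mice allow. Rarres2 was singled out by its usage test on the same mice, so this p is not separate evidence. The upstream first exon had a share of 45.8%, 41.0% and 43.6% in WT and 38.6%, 36.8% and 34.1% in KO. The 2 choices share their transcripts, so they are not independent.

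The adjusted p of Rarres2 was 0.0783 in edgeR's diffSpliceDGE test. In WT mice nearly all of the TPM came from Rarres2-203 and Rarres2-204, while Rarres2-201 held at most 1.13% there and 8.56%, 5.09% and 6.30% in KO. Where every transcript had to reach 10 counts in each mouse, the unadjusted p was 0.673. Over the other alternatives tried the adjusted p lay between 0.0219, without WT1, and 0.991. Kallisto infers these shares from reads that mostly fit several transcripts, and reads over the junction alone were not analysed here.

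Dnah6, an inner dynein arm heavy chain, also lies on the reverse strand of chromosome 6. Dnah6-203 lacks a coding exon of 156 bases that Dnah6-201 and Dnah6-204 include. It is shown in capitals, between 10 bases of each neighbouring exon.
Dnah6-201 (exon at chr6:73144660-73144815): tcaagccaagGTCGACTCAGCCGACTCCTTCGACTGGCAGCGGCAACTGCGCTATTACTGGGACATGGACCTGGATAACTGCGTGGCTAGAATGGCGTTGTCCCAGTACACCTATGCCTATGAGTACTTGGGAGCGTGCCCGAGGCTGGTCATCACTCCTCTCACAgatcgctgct
Transcripts with this exon made up 99.7%, 93.1% and 86.1% of the TPM in WT and 50.7%, 75.2% and 71.2% in KO. The means were 92.9% ± 6.8 and 65.7% ± 13.1 (SD, n = 3 each), and the groups did not overlap. An exact permutation test, two-sided, gave p = 0.1, the smallest that 3 against 3 mice allow. Dnah6 too was singled out by its usage test on the same mice, so this p is not separate evidence. The unadjusted p in edgeR's diffSpliceDGE test was 0.0164 and the adjusted p was 1. In the same edgeR test the unadjusted p was 0.0734 without WT1, 0.241 without KO1, 0.11 without both mice numbered 1 and 0.0712 with the replicate block. Without WT2 or KO3 it was 0.139 and 0.177. It was lower without WT3 (0.00572), and 0.0345 without KO2 and 0.0365 with a term for the mice numbered 1. An F test per gene gave 0.00685 and limma's diffSplice on voom weights 0.00438. The lowest adjusted p of these alternatives was 0.332, in the edgeR test without WT3. The gene is low, and Dnah6-203 had between 5.96 and 660 estimated counts per mouse, with 5.96 in WT1.

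**Figure D5:**
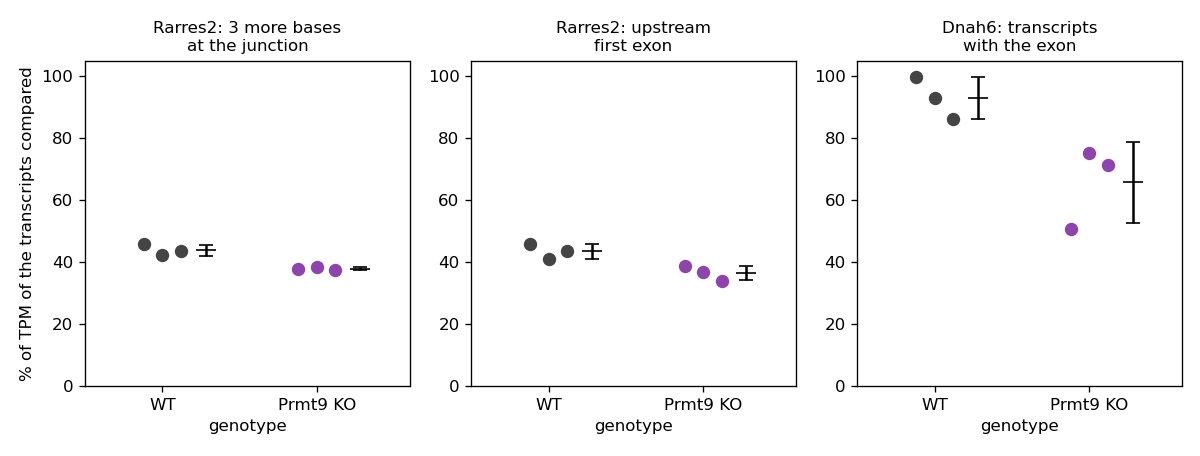
Shares per mouse, as percent of the TPM of the transcripts compared, of the Rarres2 form with 3 more bases at the junction, of the upstream first exon of Rarres2 and of the Dnah6 transcripts with the exon of 156 bases. Points are mice, and the bar beside them is the mean with its SD (n = 3). The Prmt9 KO mice lie below the WT mice in each panel.

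Calls of 2 further members depended on the mice left out. Tekt1 was called for transcript usage by edgeR's diffSpliceDGE test without WT1 only, and Ccdc153 without both mice numbered 1 only, where the share of Ccdc153-202 was 2.74% and 2.60% in WT2 and WT3 and 15.6% and 20.7% in KO2 and KO3. With all mice Ccdc153-202 had 9.15% in WT1 and 13.52% in KO1, and the unadjusted p of Ccdc153 was 0.523. The Enpp2-201 transcript led its gene in every mouse, with 59.9% to 82.6% of the TPM. Ttr and Foxj1 had 1 transcript each that carried the whole level.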

How the data were processed

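Poly(A)+ RNA from hippocampus of 3 WT and 3 Prmt9 KO mice had been sequenced from a stranded library. The authors quantified transcripts with kallisto (version 0.46.0 per the labels), and deposited estimated counts and TPM per transcript, and a table of TPM per gene. The labels also name STAR 2.7.1a and GRCm38. The members and lists were chosen with earlier results of these data known.

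Of 118783 transcripts, 116622 matched GENCODE M21 and were kept. Estimated counts were summed per gene, rounded and compared with edgeR 4.0.16 (R 4.3.3; quasi-likelihood test, TMM, default filter). Adjusted p-values are Benjamini-Hochberg values over all genes, and a gene was called where it was below 0.01 and the fold change exceeded 1.5. diffSpliceDGE tested transcript usage. DESeq2 1.42.0 and limma 3.58.1 served as alternatives, as did other filters, pseudocounts, a term for the mice numbered 1, a replicate block and leaving out each mouse. Total estimated counts were between 194098391 and 286771677 per mouse. They limit the precision of low genes, and kallisto's shares carry an inference error beside counting error.

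Named with values for every mouse were the 5 members of each set with the highest mean TPM, Otx2, Foxj1 and members with an unadjusted p below 0.05, whereas other members are given by ranges. Deviations from the genotype mean correlated between mice of the same number (0.553, 0.415 and 0.383, all over 0.1). Mice 2 and 3 could not be told apart (WT2 with KO3 0.417, WT3 with KO2 0.394). As WT1 and KO1 stood apart, mice 2 and 3 of both genotypes deviate from their means in the same direction. The correlations therefore cannot show pairs beyond the likeness of WT1 and KO1. The number was used as a block only in an alternative fit. On counts simulated for 20315 genes with the dispersions of these mice, the test of Prmt9 KO against WT recovered 0 of the 200 genes given a 2-fold change and 133 of the 200 given a 4-fold change. With a dispersion of 0.01 it recovered 198 and 200. No pair of mice agreed within sampling noise.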

Additional observations from a re-analysis of the deposited data

How the results depend on the processing

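No member was called for expression under any alternative. Over all genes the count of 0 calls became 2 with the DESeq2 Wald test, 1 with a term for the mice numbered 1, 1 without both mice numbered 1 and 1 at an adjusted p below 0.05 with no limit on fold change; the replicate block left it at 0. For transcript usage the 23 calls became 4 with voom weights in limma's diffSplice, 1 with at least 10 counts in every mouse, 13 with the replicate block, 52 with the term for the mice numbered 1, 249 without both mice numbered 1, and 9 to 143 when each mouse was left out. Members called for usage numbered 1 without both mice numbered 1 and 0 to 1 when each mouse was left out. The ependymal median of 0.11 became 0.52 without both mice numbered 1, and ranged from −0.04 to 0.50 when each mouse was left out.

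Log2 fold changes of single members, none of them called, changed sign as follows. Without both mice numbered 1 they were 1.13 (Ttr), 0.53 (Enpp2), 0.91 (Folr1), 0.74 (Calml4), 0.81 (Sostdc1), 0.17 (Rarres2), 0.60 (Ccdc153), 0.44 (Dynlrb2) and 0.17 (Foxj1). The replicate block gave 0.04 for Ttr, 0.08 for Sostdc1 and 0.15 for Ccdc153, and the term for the mice numbered 1 gave 0.04 for Sostdc1 and 0.15 for Ccdc153. Limma on log2(TPM + 1) gave 0.09 and 0.14 for these 2 genes with and without the filter, and on log2(TPM + 0.1) it gave 0.12, 0.16 and, for Dynlrb2, 0.01. When each mouse was left out the values ranged from −1.36 to 0.77 (Ttr), −0.77 to 0.11 (Enpp2), −1.20 to 0.62 (Folr1), −1.01 to 0.57 (Calml4), −0.60 to 0.62 (Sostdc1), −0.70 to 0.33 (Rarres2), −0.32 to 0.67 (Ccdc153), −0.65 to 0.64 (Dynlrb2), −0.24 to 0.06 (Foxj1), −0.22 to 0.86 (Otx2) and −0.04 to 0.59 (Dnah6). The cause was not tested. Without a mouse, Drc1, at 0.00 with all mice, ranged from −0.25 to 0.13. With 3 mice a genotype, a change of 2-fold in a choroid gene was within the spread between mice.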
